A study of Mus musculus with 18 samples.

Results

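The regions described here are 509 tiles of 1 kb, out of 77064 tiles in all, that lie in 3 windows of the mouse genome (build mm9): 144900 to 147700 kb on chromosome 4 (150 tiles), 17500 to 24500 kb on chromosome 12 (265 tiles) and 65000 to 68000 kb on chromosome 13 (94 tiles). A tile was used when it held at least 3 CpGs with at least 5 reads in every one of 18 libraries. The windows, which hold segmental duplications and zinc finger gene clusters, were chosen by their measured methylation in these same libraries, as places with many tiles at a middle level that varied little. Level and steadiness are therefore given as descriptions, with no test. The libraries are multiplexed reduced representation bisulfite libraries of genomic DNA, cut by the enzyme MspI at CCGG, from mammary epithelium of C57BL/6 female mice. Cells labelled stem, progenitor or mature were purified at 6 stages: virgins of week 3 and week 9, pregnancy day 10, day 16 and day 19, and retired breeders. This gave 1 library per cell type and stage, hence 2 virgin, 3 pregnant and 1 retired library for each cell type, with no genetic change or drug in any group. Ages are given only for the virgin mice, so age and pregnancy cannot be told apart. Whether each library had its own animals is not stated in the labels, and stages served as replicates, so p-values measure the spread between these libraries. Methylation data do not allow a check of the purified cell types against expression markers.

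CpG methylation adds a methyl group to cytosine and is copied to the new strand when DNA replicates. Dense CpG clusters at the promoters of active genes are usually free of it, while repeats and most other CpGs carry it. Segmental duplications are long stretches present in several near-identical copies, and clusters of zinc finger genes commonly grow by such duplication. Many of the proteins they encode carry a KRAB domain, bind DNA of transposable elements and recruit factors that keep those elements silent. A read from one copy can fit another copy, so a level listed at one place can mix several places; how the reads of these libraries were assigned is not given in the sources used here.

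No genome of build mm9 was used, so the sequence of the windows was read through the spacing of their CpGs. RefSeq promoters (GRCm38.p6, 300 bases around each gene start) were laid on the CpG positions of the files, and a promoter was placed where at least 11 of its CpGs fell on listed CpGs and at most 1 listed CpG had no partner. Of 2025 tried promoters from chromosomes 4, 12 and 13, those of 23 genes were placed on their own chromosome, in 51 placements. Of 11569 tried promoters from other chromosomes, 1 gene was placed, in 2 placements. The 4 sequences below are shown because they carry the contrast in the windows: promoters that recur along a window with a low but not empty level, against a promoter found at 1 place with almost none. Capitals mark the CpGs listed in the files at the place with the most matches.
Gm40847: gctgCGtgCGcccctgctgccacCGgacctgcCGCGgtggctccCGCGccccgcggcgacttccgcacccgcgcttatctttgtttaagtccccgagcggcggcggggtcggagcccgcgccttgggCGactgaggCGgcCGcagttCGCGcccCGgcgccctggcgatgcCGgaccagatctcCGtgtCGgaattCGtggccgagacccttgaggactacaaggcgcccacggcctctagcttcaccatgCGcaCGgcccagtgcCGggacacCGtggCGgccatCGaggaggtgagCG
Gm5784: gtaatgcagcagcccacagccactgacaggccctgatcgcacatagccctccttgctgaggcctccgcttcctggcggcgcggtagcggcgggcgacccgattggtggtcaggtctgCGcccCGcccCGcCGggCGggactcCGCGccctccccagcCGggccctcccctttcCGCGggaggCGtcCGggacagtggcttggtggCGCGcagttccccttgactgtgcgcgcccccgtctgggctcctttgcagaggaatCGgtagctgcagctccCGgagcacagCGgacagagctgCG
Gm31714: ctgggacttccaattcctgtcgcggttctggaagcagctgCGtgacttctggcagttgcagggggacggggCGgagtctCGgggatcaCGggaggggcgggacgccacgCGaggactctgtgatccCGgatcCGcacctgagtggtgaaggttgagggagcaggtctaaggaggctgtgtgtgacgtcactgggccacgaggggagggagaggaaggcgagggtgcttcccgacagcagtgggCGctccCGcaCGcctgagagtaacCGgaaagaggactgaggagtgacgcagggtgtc
Plod1: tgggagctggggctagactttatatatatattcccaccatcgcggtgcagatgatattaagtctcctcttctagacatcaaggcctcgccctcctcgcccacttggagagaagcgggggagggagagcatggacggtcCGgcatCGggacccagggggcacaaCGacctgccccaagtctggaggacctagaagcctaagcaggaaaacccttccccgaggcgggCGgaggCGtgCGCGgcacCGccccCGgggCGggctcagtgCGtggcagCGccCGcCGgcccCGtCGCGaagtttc

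The promoter of Gm40847 matched 5 places of the chromosome 12 window, with 24 of its 42 CpGs at chr12:18859560-18859859. Over the CpGs measured in all libraries, methylation at that place was 24.6% ± 5.75 (SD, n = 18 libraries, the n of every SD over libraries below). The other places of Gm40847 lay at 10.7% to 24.6%. The promoter of Gm5784 matched 4 places on chromosome 12, and its best match, chr12:19393475-19393774, had 5.56% ± 3.60. The promoter of Gm31714 matched 3 places on chromosome 13 with 11 of its 22 CpGs each, and had 13.2% ± 4.75 at chr13:65663822-65664121 and 9.56% ± 3.55 at chr13:66969164-66969463. These levels rest on 6 and 5 CpGs measured in all libraries, and the remaining place had only 2 and no level. The promoter of Plod1, a lysyl hydroxylase that modifies collagen, matched 1 place, chr4:147310836-147311135, with 0.216% ± 0.716.

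The 5 other promoters that were placed outside any family of repeated places and had enough measured CpGs were as empty as that of Plod1. Levels were 0.0586% at Clcn6, a chloride and proton exchanger of late endosomes, and 0.115% at Fbxo44, an F-box protein of a ubiquitin ligase. They were 0.131% at Cpsf3, the nuclease that cuts pre-mRNA before polyadenylation, 0% in all 18 libraries at Adam17, the protease that sheds EGF receptor ligands, and 0.171% at Gm36445. The CpGs measured in all libraries numbered 7 at Clcn6, 9 at Fbxo44, 6 at Cpsf3, 3 at Adam17, 13 at Gm36445 and 6 at Plod1. The levels cover only that part of each promoter. The promoters of Odc1, Mfn2 and Fbxo2 were placed but had fewer than 3 CpGs measured in all libraries. The other promoters of chromosome 12 all fell in 1 group of repeated places, family 1 of the results on CpG spacing. Those with such CpGs were 5730507C01Rik, Gm10479, Gm21297, Gm38538, Gm38699, Gm3973, Gm40847, Gm40862, Gm40881, Gm5784, Gm9257 and LOC108167368, while 2410018L13Rik had too few. Their placed levels ran from 4.78% at a place of Gm5784 to 28.3% at a place of Gm3973. Those of 5730507C01Rik (7.35%), Gm10479 (13.4%) and Gm21297 (10.4%) were matched at 1 place only, several others share places, and a match by CpG spacing does not tell which copy belongs to which gene.

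Most tiles of the windows were not at a middle level. Of 509 tiles, 153 (30.06%) had a mean over the libraries of 20 to 80%, 116 (22.79%) were below 20% and 240 (47.15%) above 80%. Outside the windows 22.11% of 76555 tiles were at 20 to 80%. The 3 windows were alike in this share, with 46 of 150 tiles on chromosome 4 (30.67%), 78 of 265 on chromosome 12 (29.43%) and 29 of 94 on chromosome 13 (30.85%). The label of middle methylation therefore fits a minority of the tiles. The share differed most in CpG-dense tiles. Of the 126 window tiles with 10 or more CpGs, 36.51% were at 20 to 80%, against 4.563% of 15296 such tiles outside. With 6 to 9 CpGs the shares were 25.84% and 15.85%, and with 3 to 5 CpGs 28.57% and 29.61%.

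**Figure D1:**
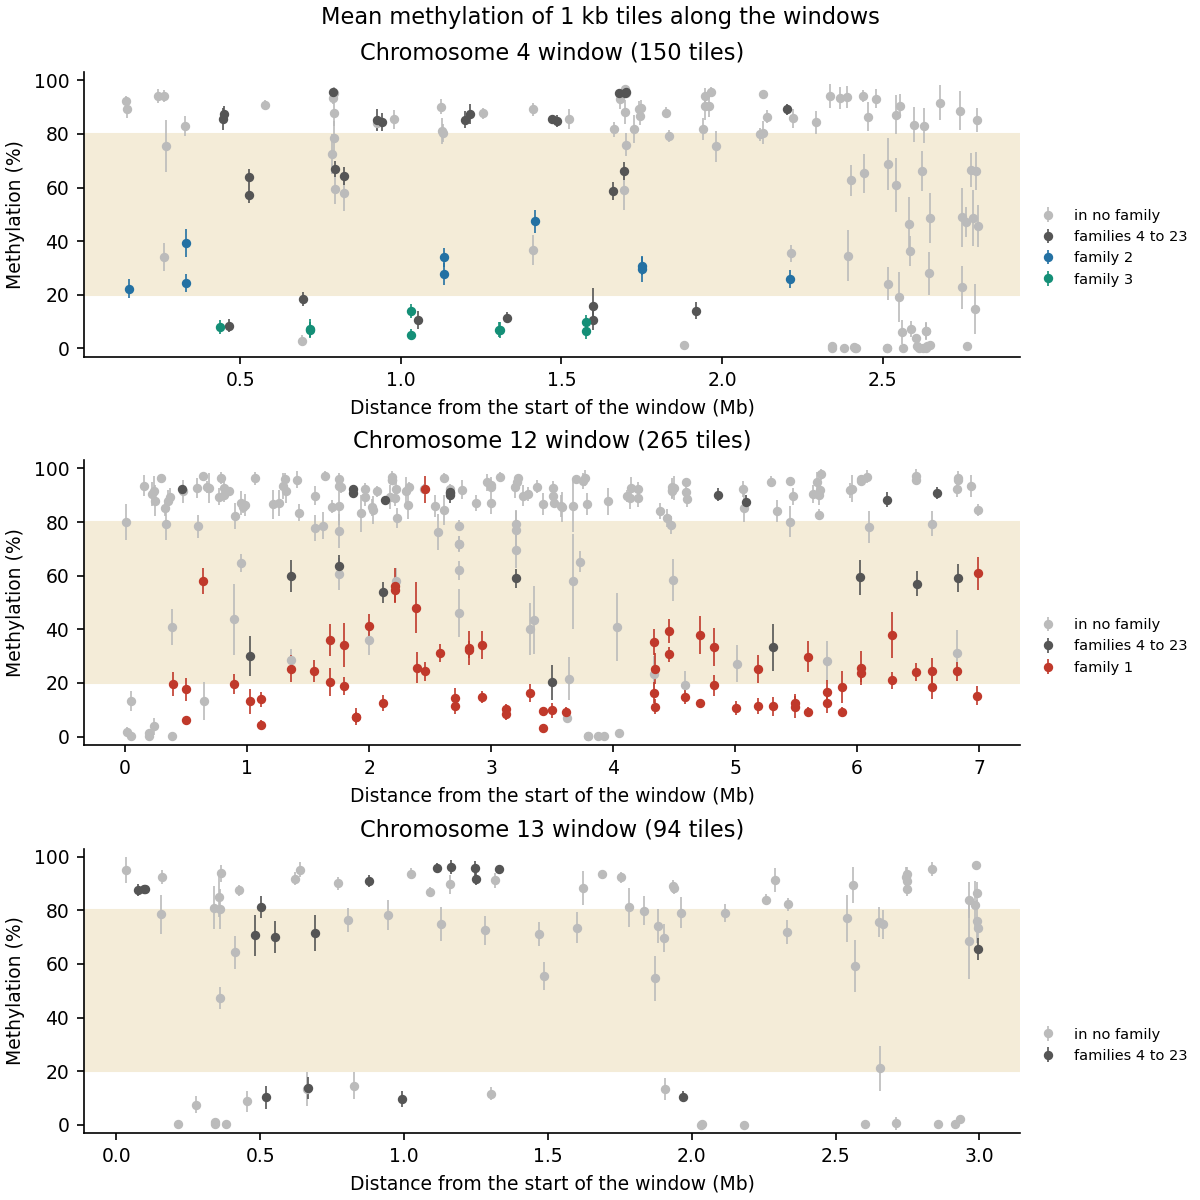
Mean methylation of the 509 tiles (points; bars are 1 SD over the 18 libraries) against distance from the start of each window in Mb; the shaded band is 20 to 80%. Families 1 to 3 are tiles that share CpG spacing; the 71 tiles of family 1 are spread along the chromosome 12 window, nearly all at low to middle levels, and the last 0.587 Mb of the chromosome 4 window has no tile of a family.

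Single tiles show the range. The lowest was chr4:147413001-147414000 at 0.00879% and the highest chr12:23205001-23206000 at 97.8% ± 1.91. The tile with the most CpGs was chr4:145335001-145336000, with 61 CpGs at 7.90% ± 2.58 and 95.9 reads per CpG and library. On chromosome 12 the most CpGs were in chr12:22086001-22087000 (51 CpGs, 14.9% ± 2.78), and on chromosome 13 in chr13:65360001-65361000 (24 CpGs, 47.3% ± 4.09).

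At chr13:65360001-65361000 virgin libraries had 43.7% and 46.9% in stem, 46.9% and 49.3% in progenitor and 48.95% and 50.7% in mature cells at week 3 and week 9. At day 10, day 16 and day 19 of pregnancy the levels were 52.8%, 46.0% and 45.8% in stem, 42.2%, 51.6% and 45.2% in progenitor and 47.6%, 52.7% and 44.6% in mature cells. Retired libraries had 41.5%, 54.0% and 40.1% in the same order of cell types. Virgin and pregnant libraries overlapped in progenitor and mature cells, and also in stem cells, where day 16 and day 19 lay between the virgin values.

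The deepest window tile, chr12:20239001-20240000, had 281 reads per CpG and library and a level of 72.0% ± 2.66. Its stem libraries gave 71.2% and 73.3% in virgin, 69.7%, 74.8% and 66.7% in pregnant and 73.9% in retired mice. Progenitor libraries gave 70.5% and 72.6%, then 72.2%, 74.7% and 70.1%, and 73.2% in retired mice. Mature libraries gave 72.2% and 71.7%, then 66.5%, 72.8% and 72.2%, and 77.3%. All 18 values fell within 66.5% to 77.3%, with the day 10 mature library lowest and the retired mature library highest. Its neighbour chr12:20240001-20241000 had the smallest SD among the middle tiles of its window, at 78.7% ± 2.08.

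The tiles just inside and just outside the window limits differed by edge. On chromosome 4 the last tile inside was chr4:147696001-147697000 at 45.7% ± 7.72 and the next outside, chr4:147701001-147702000, had 7.70% ± 4.40. The first inside, chr4:145045001-145046000, had 92.4% ± 1.66, and the nearest before it, chr4:144836001-144837000, 0.722% ± 1.62. On chromosome 12 the first inside, chr12:17510001-17511000, had 79.96% ± 6.67 and the nearest before it, chr12:17391001-17392000, 94.6% ± 4.34. At the other end the last inside, chr12:24489001-24490000, had 84.5% ± 2.40 and the next outside, chr12:24517001-24518000, 80.8% ± 4.54. On chromosome 13 the first inside, chr13:65034001-65035000, had 94.9% ± 4.86 and the nearest before it, chr13:64980001-64981000, 96.5% ± 1.38. The last inside, chr13:67994001-67995000, had 73.3% ± 4.34 and the next outside, chr13:68018001-68019000, 95.5% ± 1.64.

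Steadiness, which the choice of windows used, is described by the SD of a tile over the libraries. Window tiles at 20 to 80% had a median SD of 5.69 points, against 8.52 points at 16926 tiles of that level outside. Tiles with 3 to 5 CpGs had 6.47 points in the windows and 8.86 outside, those with 6 to 9 CpGs 6.15 and 7.29, and those with 10 or more 3.93 and 5.35. With the part expected from read counting removed, the same values were 5.04 and 7.66, 5.32 and 6.56, and 3.34 and 4.89 points. In the densest class the window tiles also had more reads, with a median of 1057 per tile and library against 650.2.

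**Figure D2:**
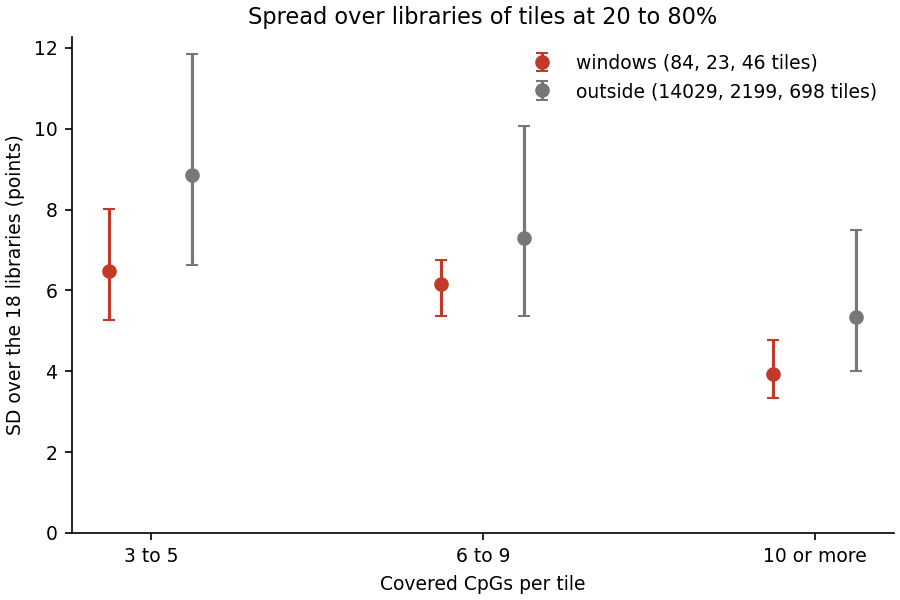
Median SD over the 18 libraries, in percentage points, of tiles with a mean of 20 to 80%, by number of covered CpGs; bars run from the lower to the upper quartile of tiles. In each class the window median lies below the outside median.

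Levels over tiles ran alike in the libraries, which the choice of windows by steadiness favours. Across the 153 middle tiles, Pearson's r between libraries was 0.807 to 0.971 in the 153 pairs of libraries (median 0.911). It was 0.520 to 0.915 (median 0.765) over the middle tiles outside, and neighbouring or copied tiles are not independent points. Of the middle tiles, 30.07% had 10 or more CpGs in the windows, against 4.124% outside. Nothing is therefore read from the higher r in the windows.

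Mean levels of the windows moved little between libraries. The mean over all 509 tiles was 60.1% ± 0.802 and lay between 59.1% (day 19 progenitor) and 61.9% (retired progenitor). The 153 middle tiles had a mean of 52.6% ± 1.49, from 50.4% in day 19 stem to 55.7% in retired progenitor. The middle tiles averaged 52.1% ± 1.22 in stem, 53.0% ± 1.89 in progenitor and 52.8% ± 1.38 in mature libraries (n = 6 each), which overlap.

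Pregnancy in stem cells went with a smaller difference in the windows than at middle tiles elsewhere. Virgin stem libraries had 51.7% and 53.8% at the window middle tiles, and pregnant stem libraries 52.1%, 51.3% and 50.4%, a difference of -1.47 points with overlapping libraries. At middle tiles outside, virgin stem libraries had 59.2% and 60.2% and pregnant ones 56.5%, 54.6% and 54.8%, a difference of -4.43 points without overlap. In progenitor cells the differences were 1.20 points in the windows and 1.06 outside, and in mature cells 0.267 and -0.258. Because steadiness chose the windows, these differences were not tested. Single libraries moved them: the stem value was -0.506 points without week 9 virgin stem, -2.47 without week 3 virgin stem and -0.951 without day 19 stem. It was also -0.610 with at least 10 reads per CpG and -0.619 in tiles of 500 bp. The progenitor value was 0.325 without week 3 and 2.11 without week 9 virgin progenitor, 0.456 without day 16 and 2.13 without day 19 progenitor. The mature value turned to -0.825 without week 9 virgin and -0.651 without day 16 mature, and was 1.36 without week 3 virgin and 1.10 without day 19 mature. Read by window, stem cells differed by -2.23 points on chromosome 4, where pregnant libraries (48.8% to 49.8%) lay below both virgin libraries (50.6% and 52.7%). They differed by -0.497 points on chromosome 12 and -2.90 on chromosome 13, with overlap. Mature cells on chromosome 13 differed by -1.96 points, with pregnant libraries (68.7%, 66.6% and 68.4%) below both virgin ones (70.5% and 69.2%), while on chromosome 4 and chromosome 12 they differed by 0.288 and 1.08 points with overlap.

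Tile by tile, 1 of the 509 window tiles was called between pregnant and virgin stem cells, where 0.402% of all 77064 tiles were called. A call needed an adjusted p under 0.05 (quasi-binomial regression with moderated dispersion, Benjamini-Hochberg over all tiles) and a difference of at least 10 points. Since steadiness chose the windows, nothing is read from this count. The 310 calls over all tiles also rested on single libraries: there were 1589 without either virgin mature library, 853 without week 3 virgin stem, 1 without week 9 virgin stem, and 0 without day 10 stem, without day 16 stem or with limma. The called tile, chr4:147686001-147687000, holds 3 CpGs with 42.6 reads per CpG and library. Its virgin stem libraries had 34.2% and 41.3%, and its pregnant stem libraries 12.2%, 2.40% and 16.7%, a fall of 27.31 points (adjusted p = 0.0474). The retired stem library had 13.1%. Progenitor libraries ran from 5.77% to 18.2% and mature libraries from 9.02% to 16.8%, so the virgin stem libraries stood above the other 16. The call was lost with 10 reads per CpG, with tiles of 500 bp and with limma, and without 10 of the 18 libraries left out singly. These were week 9 virgin stem, day 10 and day 16 stem, both virgin progenitor, all 3 pregnant progenitor, and day 10 and day 16 mature. Depth was lower in the pregnant stem libraries (median 121 to 213 reads per tile) than in the virgin ones (249 and 321); the part of depth in the call was not tested.

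The other comparisons called no window tile and no tile at all (0%): pregnancy in progenitor or mature cells, the 3 pairs of cell types, and retired against virgin libraries. With the unadjusted p of the same regression under 0.05 there were 17 window tiles (3.34%, against 3.72% of all tiles) for pregnancy in progenitor cells and 17 (3.34% against 5.07%) in mature cells. For stem against progenitor cells there were 26 (5.11% against 9.34%), for stem against mature cells 39 (7.66% against 11.1%) and for progenitor against mature cells 21 (4.13% against 5.98%). Retired breeders against virgins gave 29 (5.7% against 5.27%). For pregnancy in stem cells, which had the called tile, there were 40 (7.86% against 14.3%). Choosing windows for steadiness favours low shares, so nothing is read from these counts either. With limma on log2 ratios the counts of calls were also 0, except 1 window tile of 38 in all for retired against virgin libraries.

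Read depth was not part of the choice beyond the minimum all tiles met, and it differed from the rest of the tiles in each window. Median reads per CpG were 1.128 times those of outside tiles on chromosome 4, above 1 in 18 of 18 libraries (range 1.094 to 1.157). They were 0.9269 times on chromosome 12 and 0.894 times on chromosome 13, below 1 in 18 of 18 libraries in both. Over all windows the ratio was 0.9743, below 1 in 18 of 18. Each gave a two-sided paired permutation p of 2e-05 (adjusted over 4 ratios 2e-05, 100000 resamples). This p speaks of how alike the libraries were and not of the spread between tiles. Whether other sets of tiles differ as much in depth was not tested.

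CpG spacing, which the choice did not use, recurred more often in the windows than elsewhere. A run of 7 neighbouring CpGs, no more than 100 bp apart, gives a string of 6 distances. Of 3600 such runs in window tiles, 63.31% had their string at another place among the listed CpGs, against 18.71% of 426380 runs outside. For 59.03% of the runs the other place lay in the same window. By window the share was 63.3% on chromosome 4, 64.1% on chromosome 12 and 56.5% on chromosome 13. Within the same window it was 58.9%, 60.9% and 42.7% in that order. Runs overlap, so a CpG-dense tile adds many of them, and the contrast was smaller by tile. Of 229 window tiles with a run, 183 (79.91%) held a recurring string, against 15470 of 30770 outside (50.28%). These shares describe how far the label of duplicated regions holds. A match at any place can also be a repeat found widely, and the same-window share was not counted outside.

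Tiles linked by shared strings formed 23 families with 154 tiles. Of these 39.61% were at 20 to 80%, with a median of 13 CpGs, against 25.92% of the 355 tiles in no family, with a median of 4 CpGs. The largest, family 1, has 71 tiles at 44 places of chromosome 12 and holds the promoters placed in repeated copies of that window. Families 2 and 3 have 9 tiles each, at 6 and 5 places of chromosome 4.

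Family 1 covered a wide range of levels, and its tiles differed more from each other than a tile did over the libraries. Tile means ran from 3.33% to 92.3% with a median of 19.1%; 38 tiles were below 20%, 32 at 20 to 80% and 1 above 80%. The SD between tiles was 15.6 points, over tiles that can cover different parts of a copy. The SD of a tile over the libraries had a median of 3.74 points and ran up to 9.36. Across the 71 tiles r between libraries was 0.878 to 0.993. In genome order its first tiles were chr12:17889001-17890000 at 19.6% ± 4.36, chr12:17999001-18000000 at 6.05% ± 1.74 and chr12:18000001-18001000 at 17.6% ± 4.32. Then came chr12:18142001-18143000 at 58.1% ± 4.80, chr12:18394001-18395000 at 19.8% ± 3.72 and chr12:18521001-18522000 at 13.1% ± 4.56. The last of these is where the promoter of 5730507C01Rik was placed.

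**Figure D3:**
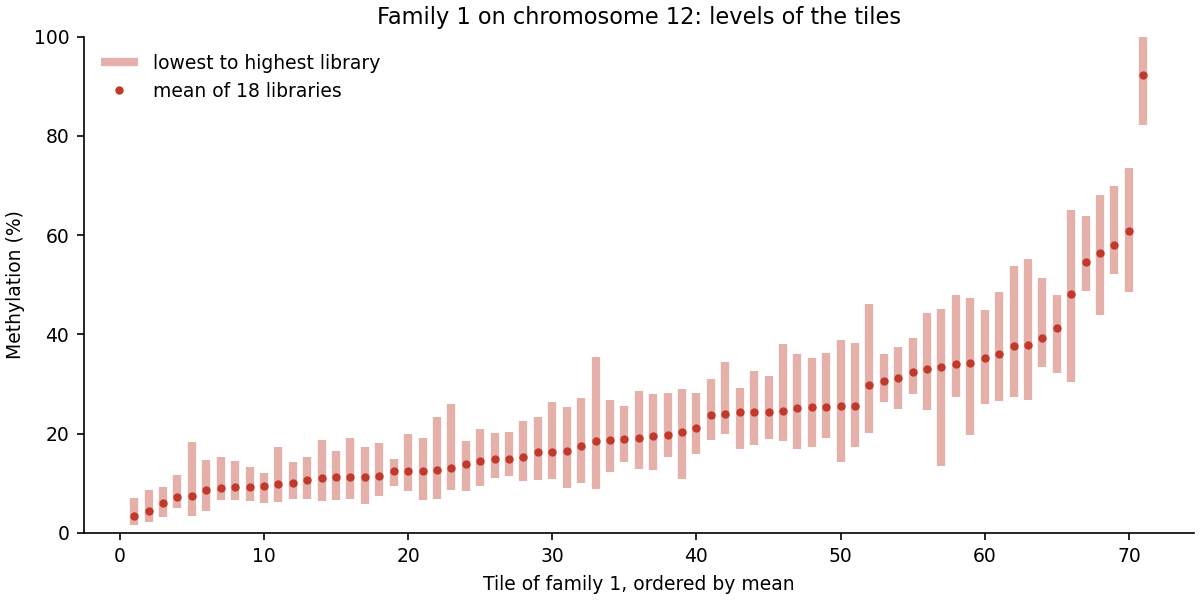
Mean (points) and lowest to highest library (bars) of the 71 tiles of family 1, in percent methylation, ordered by mean. Means climb from 3.33% to 92.3%, and most bars are short against that range.

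CpGs aligned one to one showed how far tiles with the same spacing differed. Over 633 pairs of tiles in the windows with the same string of 6 distances, the median difference was 3.34 points and the largest 47.4 points. The difference had the same sign in all 18 libraries in 138 of the 633 pairs (21.8%). Of the 153 pairs that differed by at least 10 points, a choice that favours one sign, 117 (76.47%) did. Family 1 gave 143 of the 153 pairs. Its 514 pairs had a median difference of 4.35 points, against 1.58 in 17 pairs of family 2 and 0.334 in 24 pairs of family 3, where the largest was 1.52 points. With strings of 8 distances, 332 pairs had a median difference of 2.34 points and a largest of 32.0, and 61 differed by at least 10 points. The largest in family 2 was 26.3 points with 6 distances and 3.70 with 8. Shared spacing alone does not show that tiles are copies.

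Along the copies of family 1, 16 places could be aligned on one shared string. Mean methylation was lowest at 0 to 99 bp from the first CpG of the string, 12.9% ± 5.65 (SD over copies) in 15 copies. The next bins were close, with 14.6% ± 5.1 at 100 to 199 bp in 16 copies and 15.2% ± 9.6 at 200 to 299 bp in 15. Bins do not all hold the same copies. The mean was 22.6% ± 8.20 at 201 to 300 bp before that CpG in 8 copies and 33.1% ± 21.9 at 600 to 699 bp in 10 copies. Copies spread most at that far end, from 2.62% to 71.6%.

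**Figure D4:**
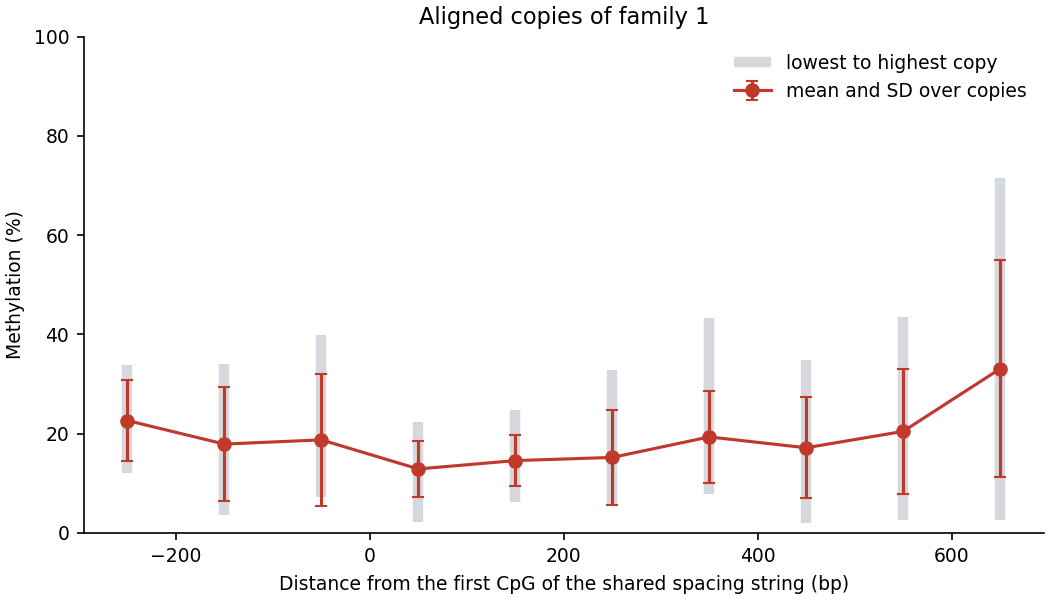
Methylation in percent along 16 aligned copies of family 1, in bins of 100 bp from the first CpG of the shared string; points and thin bars are the mean and SD over the copies with CpGs in the bin, wide bars the lowest to highest copy. The mean is lowest in the first bin of the string, 12.9%, and highest in the last, 33.1%.

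Family 2 lay at 22.3% to 47.4%, all at a middle level. It includes chr4:145054001-145055000 at 22.3% ± 3.57, chr4:145230001-145231000 at 39.2% ± 5.21 and chr4:146316001-146317000 at 47.4% ± 4.46. Family 3 lay at 5.08% to 13.9%, all below 20%, and includes the tile with 61 CpGs. A pair of smaller groups sat at a narrow middle level: family 8 on chromosome 4 (4 tiles, 57.4% to 64.2%, 129 reads per CpG and library) and family 9 on chromosome 12 (4 tiles, 57.1% to 59.9%). Family 10 on chromosome 13, which holds the places of Gm31714, had 4 tiles at 9.64% to 13.7%.

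Some families reached beyond the windows at the same level. Family 5 has 5 tiles, on all 3 window chromosomes, at 59.1% to 67.0%, and 65 tiles outside shared its strings with a median of 62.1% (47.3% to 72.3%). Family 4 (81.2% to 88.4%) had 633 such tiles outside with a median of 87.7%, and family 6 (88.1% to 92.3%) had 2183 with a median of 92.1%. Tiles outside that shared strings with families 1, 2 and 3 numbered 19, 6 and 22, with medians of 0.244%, 0.840% and 0.211%. The highest of them were at 16.8%, 20.3% and 66.0%. Whether these outside tiles are copies was not tested.

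The levels of families 1, 2 and 3 followed a like order over the libraries, although family 1 is on another chromosome. Stem libraries at week 3, week 9, day 10, day 16, day 19 and retirement had 20.9%, 23.1%, 23.8%, 22.4%, 21.7% and 23.5% in family 1. Progenitor libraries had 19.6%, 24.3%, 22.8%, 26.9%, 20.2% and 28.9% in the same order, and mature libraries 23.8%, 20.4%, 24.2%, 26.9%, 20.2% and 24.5%. The highest were retired progenitor, day 16 progenitor and day 16 mature. Family 3 was highest in the same 3 libraries, at 11.3%, 12.2% and 13.6%, and otherwise at 5.29% to 9.97%. Family 2 ran from 28.3% in week 3 stem to 36.2% in retired progenitor.

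Over the 18 libraries Pearson's r was 0.845 between families 1 and 2 (Spearman's rho 0.779), 0.890 between 1 and 3 (0.911) and 0.811 between 2 and 3 (0.831). Without the 2 libraries farthest from the median it was 0.711, 0.879 and 0.805. Within the 11 files of 4 columns it was 0.785, 0.895 and 0.795, and within the 7 files of 6 columns 0.939, 0.935 and 0.833. These are descriptions, since the windows were chosen on the same libraries. Tiles below 20% outside the windows did not share the order (r with family 1 -0.0827, rho -0.0196). The 698 outside tiles at 20 to 80% with 10 or more CpGs shared it in part (r 0.636, rho 0.734). The r of family 1 with log2 median reads per tile was -0.394 over all libraries and -0.791 within the 6-column files, and the part of depth in the shared order was not tested.

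**Figure D5:**
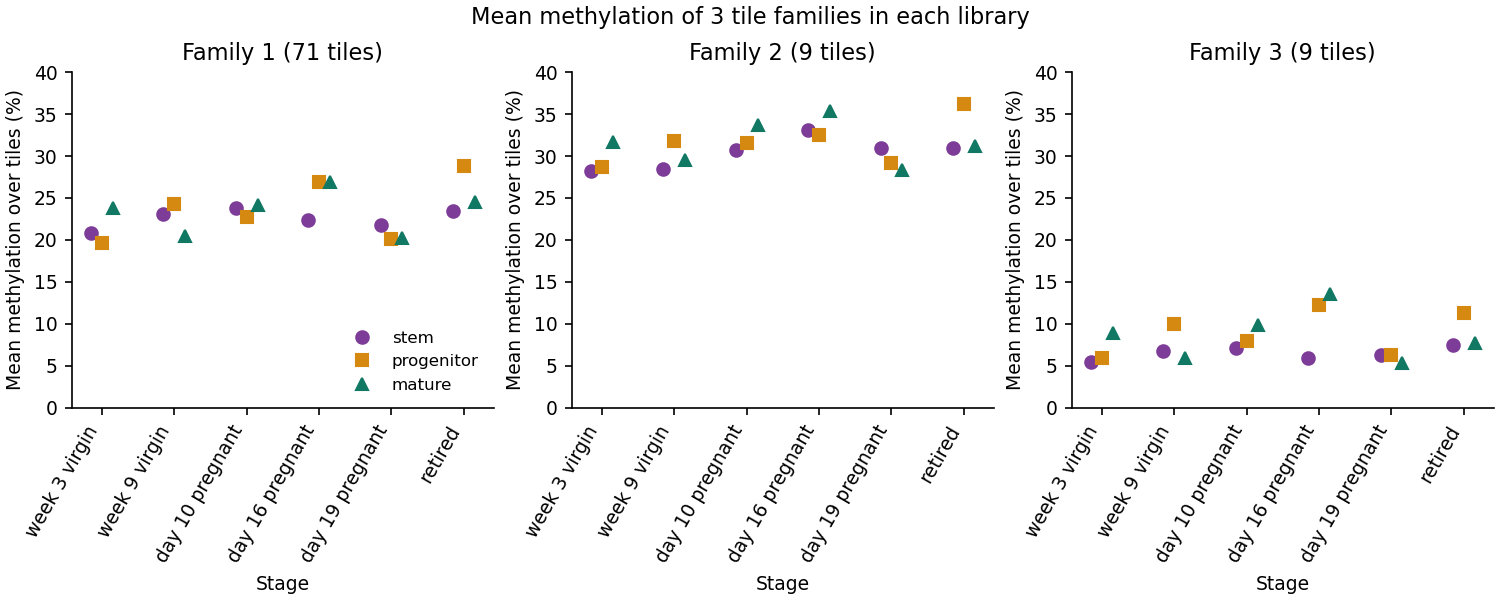
Mean methylation in percent of families 1, 2 and 3 in each library, by stage and cell type (1 point per library). In families 1 and 3 the day 16 progenitor, day 16 mature and retired progenitor libraries are the 3 highest.

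None of the 3 families separated virgin from pregnant libraries in progenitor or mature cells. Family 1 differed by 0.668 points in stem, 1.33 in progenitor and 1.60 in mature cells. In stem cells family 2 had 28.3% and 28.4% in virgin and 30.7%, 33.1% and 31.0% in pregnant libraries, a difference of 3.24 points without overlap; no test was made of this description.

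Middle tiles in the longest stretch of each window without a family varied more over the libraries than those in the rest of the window. The longest such stretch in each window was 0.587 Mb at the end of chromosome 4, 0.715 Mb on chromosome 12 and 1.02 Mb on chromosome 13, with 108 tiles together. Their 32 middle tiles had a median SD of 7.96 points, against 5.23 points at 121 middle tiles in the rest of the windows. By window the values were 7.72 and 4.22 on chromosome 4, 10.3 and 5.37 on chromosome 12, and 8.02 and 5.61 on chromosome 13. The rest of the windows also holds tiles in no family. Over all window tiles the contrast was smaller, with a median SD of middle tiles of 6.22 points in no family and 4.74 in a family. Tiles of the stretches also held fewer CpGs: the median per middle tile was 5 against 13 on chromosome 4, 3 against 7 on chromosome 12, where the stretch has only 4 middle tiles, and 4 against 4 on chromosome 13. The part of CpG number in the spread was not tested. The middle tile with the largest SD lay in such a stretch in each window: chr4:147646001-147647000 (3 CpGs) at 48.8% ± 10.9, chr12:21171001-21172000 (3 CpGs) at 57.9% ± 17.6 and chr13:67964001-67965000 (6 CpGs) at 68.4% ± 13.9. The called tile of stem cells and the single-place promoters of Plod1, Clcn6, Fbxo44, Cpsf3 and Adam17 lie there too.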

How the data were processed

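Per the labels' protocols, libraries were made from MspI-digested DNA treated with bisulfite. The authors deposited 18 files without header that list methylated over all reads per CpG, on mm9 per the submitters' processing notes. The aligner, the caller, any removal of duplicates and read filters were not given in the sources used here. Of the files, 11 have 4 columns; 7 (day 16 progenitor, all day 19, all retired) have 6, whose score and strand were not used. Reads per library ran from 17513287 to 117922522, and median reads per tile from 77 to 480; reads may include PCR copies. CpGs covered 5 times or more in every library (711980 of 1485193) were summed into 1000 bp tiles with at least 3 CpGs.

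Every tile was fitted over all 18 libraries by quasi-binomial logistic regression (9 groups, or cell type plus stage between cell types), with dispersion moderated across tiles (squeezeVar of limma, never under 1), an F test and Benjamini-Hochberg adjustment per comparison. The script was tested on simulated data. Depth ratios were tested by sign flips over libraries. Families are tiles joined by strings of 6 CpG distances. Tiles were named by extremes of level, CpGs, reads and SD in each window, by calls, by window edges, and by genome order in the largest families (at most 6 tiles each). No gene annotation of mm9 was used, and genes are named only by promoter match. The windows and lists were chosen with earlier results of these data known; promoter matches, relations between families, family-free stretches and family 3 as an equal second in size were added after seeing the data. Alternatives were 10 reads, 500 bp tiles, no CpGs above the 99th percentile of coverage, limma on log2 ratios with 1 added to each count, no stage term, strings of 4 and 8 distances, and each library left out. Python 3.11.15, numpy 2.4.6, scipy 1.17.1, pandas 2.3.3, numba 0.67.0, R 4.3.3 and limma 3.58.1 were used.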

Additional observations from a re-analysis of the deposited data

Results flagged for a closer look

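At 2 named tiles the pregnant libraries lay wholly above the virgin ones in one cell type and wholly below them in another. At chr4:145045001-145046000 pregnant libraries were higher in stem (94.3%, 96.0% and 92.2% against 91.7% and 91.4%) and progenitor cells, and lower in mature cells (90.7%, 92.4% and 94.1% against 94.3% and 94.3%). The pregnancy difference in mature cells was exceeded by 4.53 points in stem and 3.52 points in progenitor cells. At chr4:145931001-145932000, a tile of family 3, pregnant stem libraries (11.7%, 9.68% and 13.9%) lay below virgin ones (14.3% and 14.4%) and pregnant mature libraries (14.4%, 16.4% and 12.3%) above virgin ones (11.9% and 10.6%), so stem less mature was -5.66 points. Neither difference between cell types was tested. Such patterns were sought only among the windows, the families and the named tiles, and their share over all tiles was not counted. Groups of 2 virgin and 3 pregnant libraries separate easily, so nothing is read from this count. Groups had too few libraries to look for a single outlying one.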

How the results depend on the processing

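Of 406 alternative values for 21 results, 385 were scored as unchanged. That meant staying within 1.5 times the count, moving by less than 1 SD or lying on the same side of the threshold. No tested result changed direction. Such a score was easy to reach, so the share is not read as robustness. Counts for comparisons other than pregnancy in stem cells began at 0 and nearly all stayed there. Leaving out 1 library can move a mean over libraries only a little. Even the pregnancy difference in mature cells was scored as unchanged, although its sign turned. The window tile called between pregnant and virgin stem cells (1) became 0 with 10 reads, 0 with 500 bp tiles and 0 with limma, and leaving out 1 library gave 0 to 4 tiles; the cause was not tested. It was 4 without week 3 virgin stem, and 3 without week 3 or without week 9 virgin mature. With limma 1 window tile was called for retired against virgin libraries in place of 0. The mean level of window tiles, 60.1%, was 53.8% with 10 reads and 56.4% in 500 bp tiles, which keep other CpGs and tiles. The share of runs with recurring spacing, 63.31%, was 86.29% with strings of 4 and 55.03% with strings of 8 distances, against 69.84% and 10.5% outside. With strings of 8 distances, an alternative chosen after seeing the data, r between families 1, 2 and 3 was 0.811 to 0.899. Cell types were compared with stage as a block; with no replicate block the counts of called window tiles stayed at 0, while stem against mature cells had 12 calls over all tiles in place of 0. Without single libraries, pregnant minus virgin level of middle window tiles, which was not tested, ran from -2.47 to -0.506 points in stem, 0.325 to 2.13 in progenitor and -0.825 to 1.36 in mature cells, where its sign turned. Single-library groups and mixed copies limit what these levels show.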
